A study of Mus musculus with 9 samples.

Results

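Cardiomyocyte sarcomere and Z-disc genes were followed in the neonatal mouse ventricle after heart surgery. The set held 38 of the 14479 genes in the deposited expression matrix: 11 of the thick filament and M-band, 12 of the thin filament, and 15 of the Z-disc and the cytoskeleton attached to it. They were chosen by gene symbol, with no measured value in the rule, but with earlier results of these data known. All 38 listed symbols were in the matrix. Messenger RNA was sequenced from CD-1 mice, an outbred strain, in 3 groups of 3 libraries. Pups of the first group had apical resection, the surgical removal of the tip of the ventricle, together with vagotomy of the left vagus nerve, which carries parasympathetic fibres to the heart. The second group had apical resection alone, and the sham group had sham surgery. All groups were operated on postnatal day 1, and hearts were taken on postnatal day 2. The tissue sequenced was the bottom part of the ventricle, the region next to the cut. The comparisons ask how these genes stood 1 day after resection, and how that state differed when the left vagus was also cut.

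The sarcomere is the contractile unit of heart muscle. Myosin heavy and light chains form the thick filament, which pulls on thin filaments of cardiac actin. Tropomyosin and the troponin complex on the thin filament let calcium switch contraction on, and alpha-actinin anchors the thin filaments at the Z-disc. Around birth the rodent ventricle exchanges fetal isoforms for adult ones, for example beta for alpha myosin heavy chain and slow skeletal for cardiac troponin I, and newborn mouse cardiomyocytes take their sarcomeres apart when they divide.

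Expression is given in FPKM, fragments normalized to transcript length and library size, a scale that allows genes of different length to be set side by side. The median gene stood at 7.54 to 8.29 FPKM in the libraries with vagotomy, 7.52 to 7.85 FPKM after resection alone and 7.60 to 7.71 FPKM after sham surgery. Mitochondrially encoded transcripts made up 23.5% to 34.0% of the summed FPKM with vagotomy, 37.2% to 76.3% after resection alone and 51.4% to 59.3% after sham surgery, so the groups with and without vagotomy did not overlap in this measure. Over the tested genes vagotomy replicate 3 correlated at 0.883 and 0.890 with the other vagotomy libraries, which correlated at 0.937 with each other. The resection libraries correlated at 0.880 to 0.898 among themselves. With the resection and sham libraries, vagotomy replicate 3 correlated at 0.746 to 0.828, and the other vagotomy libraries at 0.798 to 0.895. The main results that rest on vagotomy replicate 3 are given with and without it. Markers that define cardiomyocytes outside the sarcomere were all present, with 14 of 14 in the matrix and a summed level of 10851 to 27232 FPKM with vagotomy, 6100.0 to 8444 FPKM after resection alone and 7564 to 8479 FPKM after sham surgery. Without Casq2, a calcium store protein, the sums were 9232 to 11288 FPKM with vagotomy, 5759 to 6587 FPKM after resection alone and 7078 to 8205 FPKM after sham surgery. Vagotomy thus still lay above both. Without Casq2 and Atp2a2, the calcium pump, they were 6215 to 7198 FPKM with vagotomy, 4691 to 5299 FPKM after resection alone and 5771 to 6778 FPKM after sham surgery. Vagotomy and sham then overlapped, but both genes left out were higher with vagotomy (log2 difference from sham 3.48 and 1.12). Others of the 14 were lower with vagotomy than after sham surgery, among them Cox7a1 (log2 difference -2.23) and Cox6a2 (-0.87). With vagotomy 10 of the 14 had the higher mean against resection (median log2 difference 0.37) and 7 of 14 against sham (0.02). Over all tested genes 51.6% and 52% had the higher mean. Of 15 fast and embryonic skeletal muscle markers, 11 were not in the matrix, among them Myod1, Myog and Myh3. In whole tissue, fewer cardiomyocytes and less RNA per cardiomyocyte cannot be told apart.

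**Figure D1:**
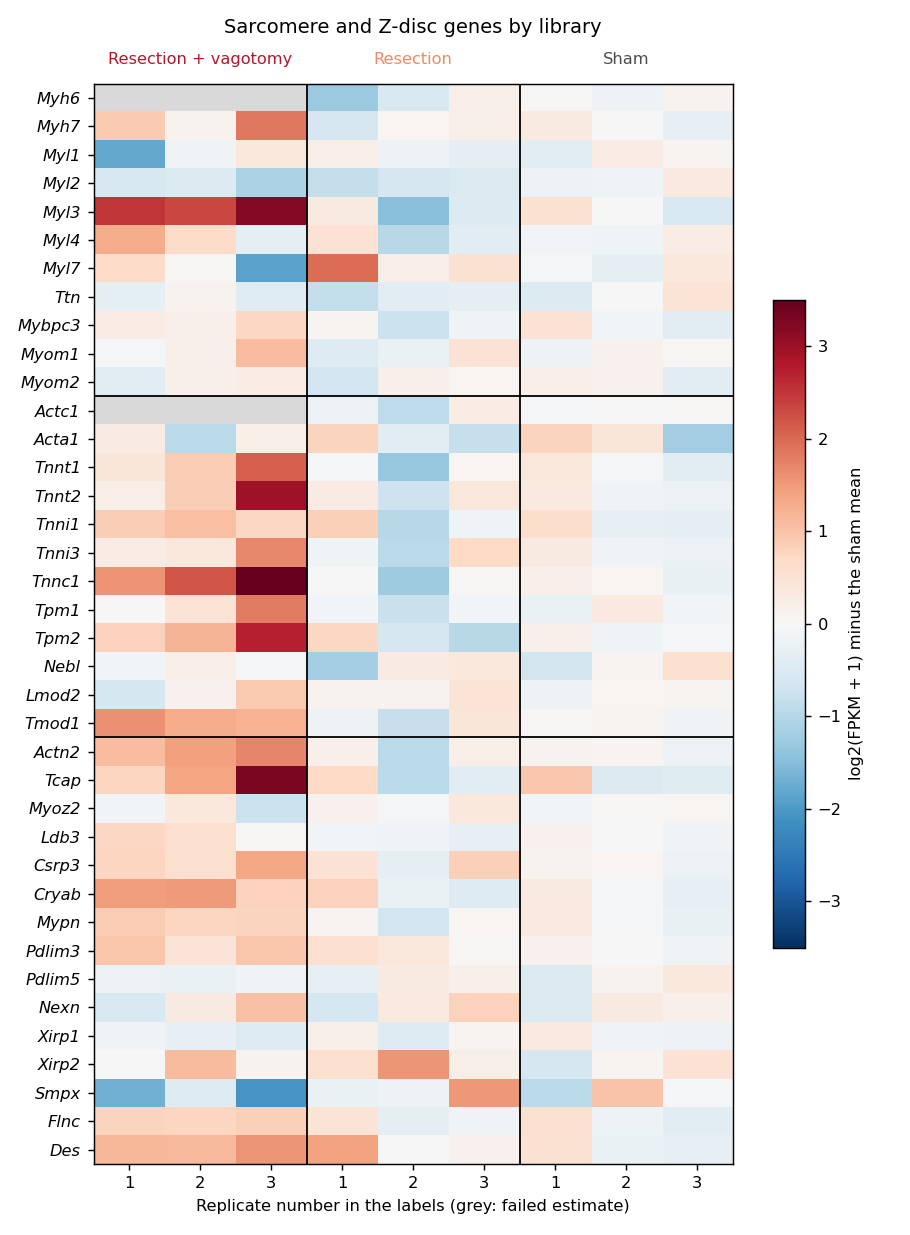
Heat map of the 38 genes in the 9 libraries, shown as log2(FPKM + 1) relative to the sham mean (n = 3), with resection with vagotomy at the left, resection in the middle and sham surgery at the right, and genes grouped by filament. Grey cells are the failed estimates of Myh6 and Actc1 with vagotomy, and Myl3 and Tnnc1 stand out as higher in all 3 vagotomy libraries.

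The abundant genes of the set were those of the adult ventricle. In sham hearts Actc1, cardiac alpha-actin, averaged 6613 ± 256 FPKM, Myl2, the ventricular regulatory myosin light chain, 6184 ± 1372 FPKM, and Myh6, alpha myosin heavy chain, 3261 ± 337 FPKM (SD, n = 3 each). Genes named for atrial or fast skeletal muscle were low there: Myl7, the atrial regulatory light chain, averaged 2.70 ± 0.90 FPKM and Myl1, the fast skeletal essential light chain, 9.78 ± 2.23 FPKM (SD, n = 3 each). Fetal isoforms lay in between, with Tnni1, slow skeletal troponin I, at 481 ± 190 FPKM beside Tnni3, cardiac troponin I, at 2098 ± 427 FPKM (SD, n = 3 each). Actins, myosin heavy chains and tropomyosins have near-identical paralogs, so the split of reads within those families is uncertain. The locus deposited for Acta1 held 182 other annotated genes and that of Myom1 held 11, so the values of both are less certain still.

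Myh6 and Actc1 had failed estimates after vagotomy. Both were listed at 0 FPKM in all 3 vagotomy libraries, and the authors' deposited table marked both as having too much data to quantify, so these zeros do not measure expression. Myh6 was listed at 1326, 2254 and 3718 FPKM after resection alone and at 3324, 2898 and 3562 FPKM after sham surgery. Actc1 was listed at 5725, 3599.5 and 7955 FPKM after resection alone and at 6338, 6656 and 6845 FPKM after sham surgery. No fold change involving vagotomy is given for either gene, which leaves 36 genes in those comparisons.

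When the left vagus was cut in addition to resection, 4 of the 36 genes rose and none fell, against resection alone: Myl3, Tnnc1, Tmod1 and Actn2. They encode the ventricular essential myosin light chain, cardiac troponin C, the cap of the thin filament's pointed end, and the Z-disc cross-linker alpha-actinin-2. A gene was called at an adjusted p under 0.05 in limma, with Benjamini-Hochberg adjustment over all 13249 tested genes, and the background was 1.97% of tested genes called higher and 1.55% called lower. By role, 1 of 10 thick filament and M-band genes, 2 of 11 thin filament genes and 1 of 15 Z-disc and cytoskeletal genes were called. The mean log2 level was higher with vagotomy for 26 of the 36 genes, and for 51.6% of all tested genes. The median difference was 0.65, against 0.02 over all tested genes. Without vagotomy replicate 3 the median was 0.47. At an unadjusted p under 0.05, 13 of the 36 were higher, where the background was 13.1%, and 1 was lower, where the background was 11.1%. In 12 genes every vagotomy library lay above every resection library (background 14%), and in 1 gene, Smpx, every one lay below (background 12.2%).

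The promoters of the 4 genes that rose are shown because these were the called genes of the set, and shared regulation was not tested. Each window runs from 250 bases before to 50 after the RefSeq start (GRCm38.p6), 5′ to 3′ on the gene's strand: Myl3 at chr9:110763428-110763727 on the plus strand, Tnnc1 at chr14:31208062-31208361 on the plus strand, Tmod1 at chr4:46038972-46039271 on the plus strand and Actn2 at chr13:12340683-12340982 on the minus strand. Capitals mark matches on either strand to CATTCC, the M-CAT element bound by TEAD factors, and to the CArG box bound by serum response factor.
Myl3: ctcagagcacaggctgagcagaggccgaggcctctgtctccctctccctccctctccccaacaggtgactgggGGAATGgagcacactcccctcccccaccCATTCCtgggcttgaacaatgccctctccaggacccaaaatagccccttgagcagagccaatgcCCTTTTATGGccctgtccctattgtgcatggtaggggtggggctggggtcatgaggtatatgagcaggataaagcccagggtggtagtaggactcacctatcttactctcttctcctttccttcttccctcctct
Tnnc1: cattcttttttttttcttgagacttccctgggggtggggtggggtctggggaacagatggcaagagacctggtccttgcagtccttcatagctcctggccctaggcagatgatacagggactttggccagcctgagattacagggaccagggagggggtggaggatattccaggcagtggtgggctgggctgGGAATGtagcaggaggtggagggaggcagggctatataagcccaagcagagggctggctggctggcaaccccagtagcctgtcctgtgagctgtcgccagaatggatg
Tmod1: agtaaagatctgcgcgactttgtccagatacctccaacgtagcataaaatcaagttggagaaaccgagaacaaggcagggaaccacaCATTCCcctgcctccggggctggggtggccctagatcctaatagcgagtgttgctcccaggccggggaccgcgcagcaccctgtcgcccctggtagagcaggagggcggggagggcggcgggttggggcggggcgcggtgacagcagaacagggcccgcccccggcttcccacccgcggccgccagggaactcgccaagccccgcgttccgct
Actn2: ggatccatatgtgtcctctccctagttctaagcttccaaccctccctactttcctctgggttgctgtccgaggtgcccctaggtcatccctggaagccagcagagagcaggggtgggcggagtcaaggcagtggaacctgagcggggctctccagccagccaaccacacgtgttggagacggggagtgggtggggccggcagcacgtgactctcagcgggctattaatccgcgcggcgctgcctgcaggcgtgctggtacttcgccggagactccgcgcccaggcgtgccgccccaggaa
The Myl3 window held a CArG box starting at position -85 from the start and M-CAT elements at -177 and -149. The Tnnc1 window held an M-CAT element at -58 and the Tmod1 window an M-CAT element at -163. The Actn2 window held no match to any of the 5 motifs searched on both strands: CATTCC, the CArG box, the MEF2 site, TATAAA, which can overlap a MEF2 site, and AGATAA, bound by factors of the GATA family. Start sites were found for 33 of the 38 genes. These genes had 44 windows, of which 16 held CATTCC, as did 14.7% of all 32851 promoter windows, and 8 held the CArG box, as did 1.63% of all windows. The MEF2 site was in 4 of the 44 (3.19% of all windows), TATAAA in 8 (13.6%) and AGATAA in 6 (11.2%).

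Myl3 (ENSMUSG00000059741, chr9:110741861-110769798, plus strand) had 6514, 5818 and 10656 FPKM in the libraries with vagotomy, 1432, 423 and 838 FPKM after resection alone and 1679.8, 1149.8 and 804 FPKM after sham surgery. Every vagotomy library exceeded every other library, and the resection and sham libraries overlapped. The log2 difference was 3.21 ± 0.50 (SE) against resection (limma, adjusted p = 0.0166) and 2.67 ± 0.50 against sham (adjusted p = 0.0144). Its partner light chain Myl2 did not share this pattern, with 4117, 4396 and 2802 FPKM with vagotomy and 3425, 4029 and 4259.5 FPKM after resection alone, groups that overlapped fully (log2 difference -0.07, limma adjusted p = 0.932).

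Tnnc1 (ENSMUSG00000091898, chr14:31208312-31211729, plus strand), the calcium sensor of the thin filament, had 3017, 4610.3 and 12494 FPKM with vagotomy, 1012, 430.1 and 1032 FPKM after resection alone and 1150.4, 1063.5 and 844 FPKM after sham surgery. All vagotomy libraries were the higher ones, and replicate 3 was far above the other two. The log2 difference was 2.86 ± 0.54 (SE) against resection (limma, adjusted p = 0.0294) and 2.46 ± 0.54 against sham (adjusted p = 0.0244). Nisch shares the deposited locus of Tnnc1.

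Tmod1 (ENSMUSG00000028328, chr4:46038935-46116032, plus strand), tropomodulin-1, had 194, 158 and 149 FPKM with vagotomy, 55.4, 35.8 and 84.7 FPKM after resection alone and 64.7, 67.7 and 57.4 FPKM after sham surgery. The vagotomy libraries lay close together and above all others. The log2 difference was 1.57 ± 0.32 (SE) against resection (limma, adjusted p = 0.0337) and 1.38 ± 0.32 against sham (adjusted p = 0.0274). Its deposited locus held 5 other genes.

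Actn2 (ENSMUSG00000052374, chr13:12269426-12340760, minus strand) had 679.9, 879 and 1059 FPKM with vagotomy, 368, 168 and 369.8 FPKM after resection alone and 352, 343 and 280.1 FPKM after sham surgery. Again no vagotomy library overlapped the others. The log2 difference was 1.59 ± 0.36 (SE) against resection (limma, adjusted p = 0.0442) and 1.41 ± 0.36 against sham (adjusted p = 0.0389). No other annotated gene lay in the deposited loci of Actn2 and Myl3.

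Whether these genes passed depended on single libraries, while their log2 differences from resection lay between 2.75 and 3.63 for Myl3, 2.28 and 3.31 for Tnnc1, 1.27 and 1.88 for Tmod1, and 1.22 and 1.90 for Actn2 over the 22 alternatives run. Against resection Myl3 passed in 19 of them, Tnnc1 in 16, Tmod1 in 14 and Actn2 in 12. Without vagotomy replicate 3, the difference from resection was 2.95 for Myl3, 2.28 for Tnnc1, 1.65 for Tmod1 and 1.44 for Actn2 on the log2 scale, and none of the 4 passed (limma adjusted p = 0.0567, 0.0641, 0.0731 and 0.112). Without resection replicate 2, none passed either, with a log2 difference of 2.75 for Myl3 (limma adjusted p = 0.0654). Without resection replicate 1, all 4 passed, and so did Tpm2 and Cryab. Without vagotomy replicate 2, sham replicate 2 or sham replicate 3, Myl3 alone passed. Without vagotomy replicate 1, Myl3 and Tnnc1 passed, and without resection replicate 3 or sham replicate 1, Myl3, Tnnc1 and Tmod1 passed. With the 6 compared libraries only, the log2 differences were again 3.21 for Myl3 and 1.59 for Actn2, but the estimated spread differed and none of the 4 passed against resection (limma adjusted p = 0.0990 for Myl3 and 0.137 for Actn2). With mitochondrially encoded genes left out of the scale, Myl3 and Tnnc1 passed, while Tmod1 and Actn2 did not, although their log2 differences from resection were larger, at 1.87 and 1.90 (limma adjusted p = 0.0539 for both). The median over the set was 0.95 on that scale, where that of all tested genes was 0.28 in place of 0.02. That scale multiplies all genes of a library by 1 factor, so the larger differences are not particular to these genes. The share of mitochondrially encoded transcripts, given above, was lower in every vagotomy library, and its part in these differences was not tested. The part of the cardiomyocyte markers outside the sarcomere, also given above, was not tested either.

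**Figure D2:**
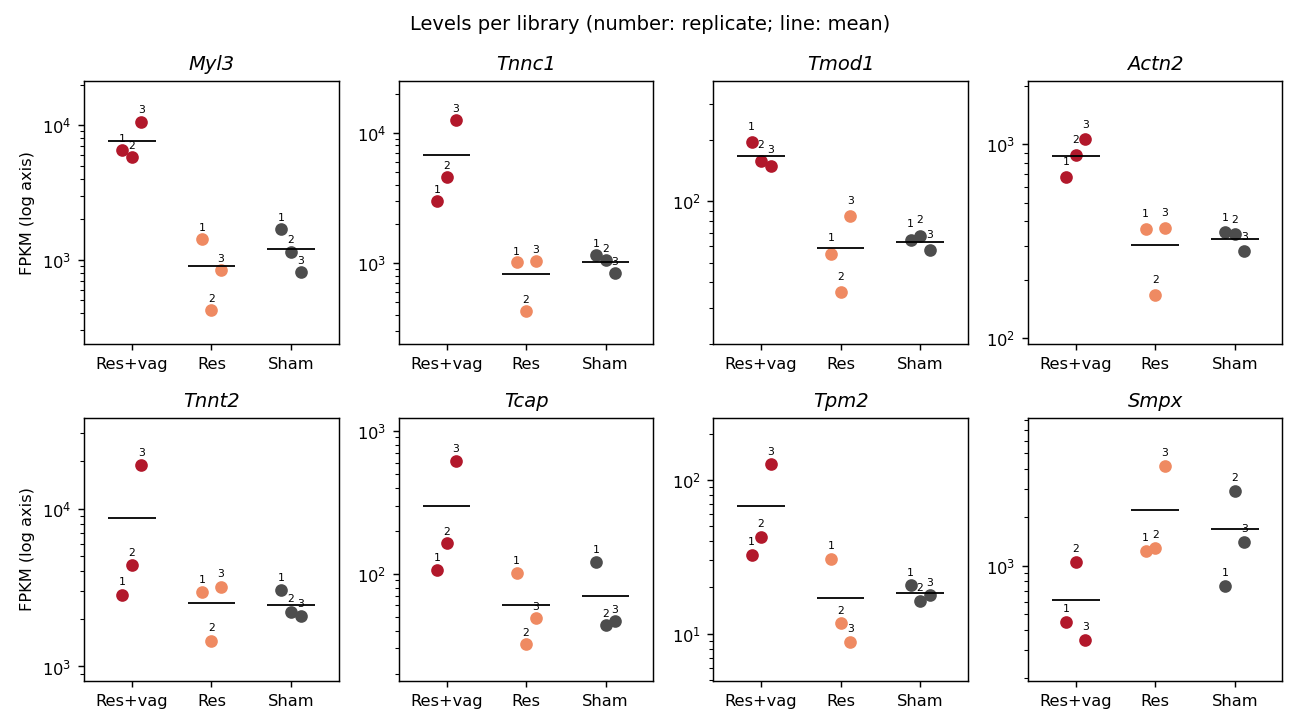
FPKM on a log axis for single libraries (points) with the group mean (bar) for selected genes, with resection with vagotomy left, resection in the middle and sham surgery right. For Myl3 the 3 vagotomy libraries sit between 5818 and 10656 FPKM and all others at 1679.8 FPKM or below.

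None of the other thin filament genes passed against resection. Tnnt2, cardiac troponin T, had 2843, 4372 and 18822 FPKM with vagotomy and 2952, 1458 and 3185 FPKM after resection alone, so the groups overlapped and replicate 3 set the mean (log2 difference 1.36 ± 0.65 SE, limma adjusted p = 0.226, and 0.56 without that library). Tnni3 had 2473, 2697 and 6674 FPKM with vagotomy and 1875, 1077 and 3374 FPKM after resection alone, which also overlapped (log2 difference 0.90, limma adjusted p = 0.311, and 0.45 without replicate 3). Tpm1, the main cardiac tropomyosin, had 2337, 3291 and 8240.1 FPKM with vagotomy, all above the 2187, 1375 and 2203 FPKM after resection alone (log2 difference 1.09, limma adjusted p = 0.203, and 0.56 without replicate 3). Tpm2, beta-tropomyosin, had 32.7, 42.7 and 127 FPKM with vagotomy, above all of the 30.8, 11.7 and 8.89 FPKM after resection alone and the 20.8, 16.4 and 17.8 FPKM after sham surgery. Its log2 difference from resection was 1.85 ± 0.53 (SE, limma adjusted p = 0.0746), and 1.27 without replicate 3.

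The fetal and skeletal partners on the thin filament did not pass either. Tnnt1, slow skeletal troponin T, had 34.5, 48.2 and 110.5 FPKM with vagotomy, 24.02, 9.54 and 26.6 FPKM after resection alone and 34.0, 24.7 and 19.4 FPKM after sham surgery (log2 difference from resection 1.58 ± 0.48 SE, limma adjusted p = 0.0874, and 1.11 without replicate 3). Tnni1 had 834, 958 and 756 FPKM with vagotomy, 815, 234 and 413 FPKM after resection alone and 700.1, 373 and 369.8 FPKM after sham surgery. The Tnni1 groups overlapped only through the first resection library (limma adjusted p = 0.217 against resection). Acta1, skeletal alpha-actin, was interleaved between groups, at 45.1, 18.6 and 42.5 FPKM with vagotomy, 64.1, 27.7 and 20.5 FPKM after resection alone and 63.7, 50.2 and 15.4 FPKM after sham surgery (log2 difference -0.01, limma adjusted p = 0.994 against resection).

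Among thick filament and M-band genes, Myh7, beta myosin heavy chain, had 449, 261 and 866 FPKM with vagotomy, 159, 251 and 276 FPKM after resection alone and 295, 238 and 194 FPKM after sham surgery. The highest resection library exceeded the lowest vagotomy library, and the log2 difference was 1.07 ± 0.43 (SE, limma adjusted p = 0.166), and 0.62 without replicate 3. Titin, the molecular spring encoded by Ttn, had 86.4, 118 and 80.9 FPKM with vagotomy and 61.4, 84.6 and 87.0 FPKM after resection alone. Ttn overlapped between these groups, with a log2 difference of 0.29 (limma adjusted p = 0.606). Mybpc3, cardiac myosin-binding protein C, had 579.8, 553 and 811 FPKM with vagotomy, all above the 520.0, 287 and 436 FPKM after resection alone (log2 difference 0.67, limma adjusted p = 0.276). The M-band genes Myom1 and Myom2, which tie thick filaments together at mid-sarcomere, had log2 differences of 0.46 and 0.15 and did not pass. The light chains Myl4, of the atrium and embryo, and Myl1 are described with the isoform ratios.

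Of the Z-disc and cytoskeletal genes, the small heat shock protein gene Cryab had 533, 545 and 340.0 FPKM with vagotomy, 342, 166 and 143 FPKM after resection alone and 242, 189 and 161 FPKM after sham surgery. The groups with vagotomy and with resection alone overlapped by the first resection library, and the log2 difference was 1.20 ± 0.38 (SE, limma adjusted p = 0.0981). Mypn, the Z-disc protein myopalladin, had 20.9, 19.1 and 19.2 FPKM with vagotomy, 11.7, 6.49 and 11.5 FPKM after resection alone and 14.0, 10.3 and 8.87 FPKM after sham surgery, without overlap (log2 difference 0.97 ± 0.27 SE, limma adjusted p = 0.0744). With the replicate number as a block, an assumed pairing that the labels do not state, both passed against resection. The limma adjusted p was 0.0366 for Cryab and 0.0422 for Mypn. The 4 called genes also passed in that fit, in which 1277 genes were called in all, against 466 without the block.

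Tcap, titin cap or telethonin, had 107, 163 and 618 FPKM with vagotomy and 101, 32.0 and 48.7 FPKM after resection alone, without overlap and with replicate 3 far above the rest (log2 difference 2.01 ± 0.66 SE, limma adjusted p = 0.106, and 1.27 without that library). Flnc, the actin cross-linker filamin C, was tight with vagotomy at 47.6, 46.7 and 48.7 FPKM, above the 37.9, 21.1 and 24.9 FPKM after resection alone (limma adjusted p = 0.156). Smpx, a small striated muscle protein, went the other way, with 449.7, 1057 and 347 FPKM with vagotomy and 1243, 1297 and 4161 FPKM after resection alone, without overlap (log2 difference -1.78 ± 0.64 SE, limma adjusted p = 0.131). Ldb3, the Z-disc scaffold Cypher, had 412, 367 and 256 FPKM with vagotomy, all above the 231, 222 and 203 FPKM after resection alone (log2 difference 0.63, limma adjusted p = 0.193). Csrp3, muscle LIM protein, had 428, 373 and 655 FPKM with vagotomy and 362, 206 and 458 FPKM after resection alone, which overlapped (log2 difference 0.54, limma adjusted p = 0.389).

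In the remaining genes the vagotomy and resection libraries were interleaved. Pdlim5, a PDZ-LIM partner of alpha-actinin, had 255, 251 and 268 FPKM with vagotomy and 242, 368 and 333 FPKM after resection alone. Nebl, the thin filament protein nebulette, had 114, 144 and 119 FPKM with vagotomy and 52.9, 149.5 and 159.6 FPKM after resection alone. Lmod2, leiomodin-2, had 50.7, 86.3 and 148 FPKM with vagotomy and 85.5, 86.1 and 109.6 FPKM after resection alone. These groups overlapped, as did those of Myoz2, Nexn, Xirp1 and Xirp2, and the log2 differences of these genes lay between -0.37 and 0.21.

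Against sham surgery, vagotomy with resection gave the same 4 calls of 36 genes, where the background was 5.81% of tested genes called higher and 4.26% called lower. The comparison shares its vagotomy libraries with the one above. The median log2 difference was 0.65, against 0.03 over all tested genes, and 27 of 36 genes had the higher mean, as did 52% of all tested genes. At an unadjusted p under 0.05, 14 were higher (background 16.4%) and 0 lower (background 13.7%), and 13 genes lay above sham in every library (background 19.7%). Tpm1, Mybpc3, Tcap and Ldb3, which lay above resection alone in every vagotomy library, overlapped with sham. For Tcap the first sham library had 121 FPKM and the first vagotomy library 107 FPKM. Myl2 was the single gene in which every vagotomy library lay below every sham library (background 17%), at 4117, 4396 and 2802 FPKM against 5322, 5465 and 7766 FPKM (log2 difference -0.72 ± 0.37 SE, limma adjusted p = 0.221). Just short of the threshold were Cryab (log2 difference 1.25, limma adjusted p = 0.0610), Pdlim3 (0.80, adjusted p = 0.0667) and Des (1.28, adjusted p = 0.0685). Pdlim3, an alpha-actinin-binding protein, had 22.2, 15.4 and 22.4 FPKM with vagotomy, 16.7, 14.7 and 11.1 FPKM after resection alone and 12.2, 10.8 and 9.85 FPKM after sham surgery. Des, desmin, the muscle intermediate filament, had 362, 353 and 474 FPKM with vagotomy, 429.7, 161 and 178 FPKM after resection alone and 232, 136 and 131 FPKM after sham surgery. Smooth muscle and pericyte markers other than Des summed to 681 to 913 FPKM with vagotomy, 578 to 652 FPKM after resection alone and 632 to 699 FPKM after sham surgery. Vagotomy thus lay above resection alone and overlapped with sham. With Des counted, 8 of the 13 markers had the higher mean against sham, with a median log2 difference of 0.53 (0.03 over all tested genes). The part of these markers in the Des values was not tested. Without vagotomy replicate 3, Myl3 alone passed against sham (limma adjusted p = 0.0468), and none passed without sham replicate 2 or sham replicate 3. In an F-test over the 3 groups, limma called the same 4 of the 36 genes, where it called 5.89% of all tested genes (adjusted p = 0.0137 for Myl3, 0.0263 for Tnnc1, 0.0299 for Tmod1 and 0.0443 for Actn2).

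Resection alone, against sham surgery, left no gene of the set past the threshold. In limma 0 of 38 were called, and 0 had an unadjusted p under 0.05, while 0.294% of all tested genes were called and 5.89% had an unadjusted p under 0.05. The authors' deposited table, described below, called 3. The log2 differences ran between -0.65 and 0.90 with a median of -0.14, against -0.01 over all tested genes, and 12 means were higher and 26 lower. Over all tested genes 48.6% had the higher mean after resection. Among the roles this held for 1 of 11 thick filament and M-band genes, 1 of 12 thin filament genes and 10 of 15 Z-disc and cytoskeletal genes, and whether the roles differ was not tested. Only Lmod2, which nucleates thin filaments, lay above sham in every resection library, and only Myl2 lay below, in a comparison where 10.8% of tested genes did not overlap.

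The 6 genes with the smallest p values after resection alone were Xirp2, Myl2, Ttn, Myh6, Myl7 and Pdlim3, and each had a limma adjusted p of 1. The spread that limma used for Myh6 and Actc1 included their failed vagotomy zeros, which do not vary. Their standard errors in this comparison, and the place of Myh6 here, are therefore less certain. Myl2 had 3425, 4029 and 4259.5 FPKM after resection and 5322, 5465 and 7766 FPKM after sham surgery, a log2 difference of -0.65 ± 0.37 (SE). Ttn had 61.4, 84.6 and 87.0 FPKM after resection and 78.6, 109 and 152 FPKM after sham surgery, which overlapped (-0.50 ± 0.31). Xirp2, an actin-binding Xin repeat protein, had 4.61, 10.05 and 3.36 FPKM after resection and 1.49, 3.07 and 4.32 FPKM after sham surgery, also with overlap (0.77 ± 0.43). With vagotomy Xirp2 had 2.76, 7.12 and 3.11 FPKM. Myl7 had 13.1, 3.25 and 4.26 FPKM after resection and 2.51, 1.91 and 3.69 FPKM after sham surgery, and its higher mean came from the first resection library (0.90 ± 0.62).

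Macrophage and neutrophil markers summed to 309 to 425 FPKM with vagotomy, 330 to 514 FPKM after resection alone and 46.3 to 88.2 FPKM after sham surgery. These ranges separated resected from sham hearts. The summed thick filament and M-band genes also separated resection alone (7206 to 10060 FPKM) from sham surgery (10715 to 13192 FPKM). Much of these sums was Myl2, at 3425 to 4259.5 FPKM after resection alone and 5322 to 7766 FPKM after sham surgery. It was the only gene of that role whose libraries did not overlap here, so the separation does not describe the role as a whole. The sums of the thin filament and of the Z-disc and cytoskeleton overlapped. Fibroblast markers summed to 1709 to 2549 FPKM after resection alone and 1742 to 2589 FPKM after sham surgery, ranges that overlapped almost fully.

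**Figure D3:**
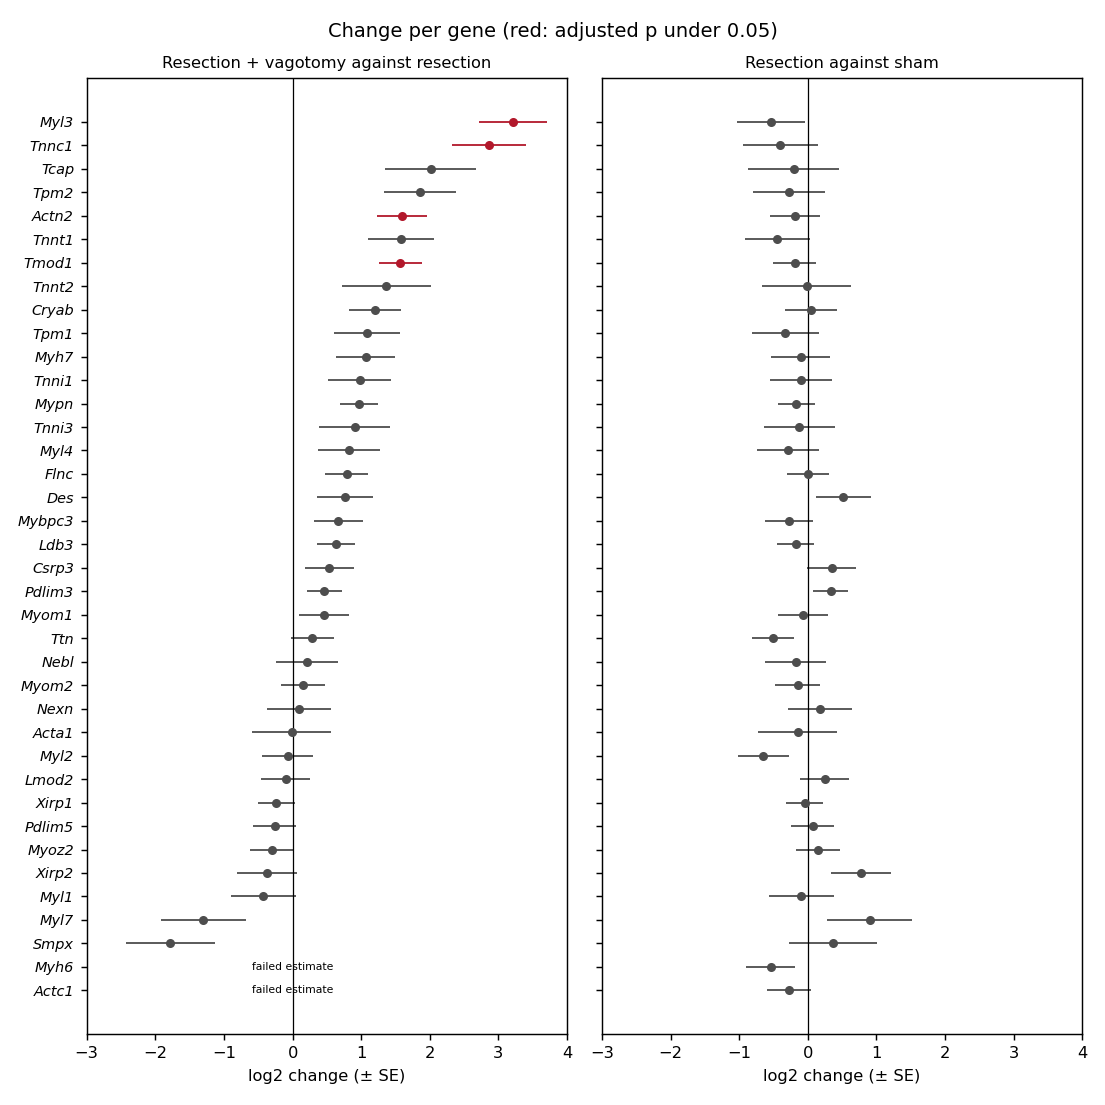
Log2 differences of the genes with their standard errors for resection with vagotomy against resection and for resection against sham, genes ordered by the first of these, points in red where the adjusted p was under 0.05. After vagotomy Myl3 stands at 3.21 and Tnnc1 at 2.86, while after resection alone the values lie between -0.65 and 0.90.

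Fetal over adult isoform ratios were taken within each library, so that for abundant genes they depend little on the scale of the library, and are given as a percent of FPKM. The tests added 1 FPKM to both genes, which matters for low genes such as Myl7. Tests were exact two-sided permutation tests, in which 3 against 3 libraries cannot give a p below 0.1, and so no ratio could pass. Myh7 stood at 11.96%, 11.2% and 7.42% of Myh6 after resection and at 8.88%, 8.22% and 5.45% after sham surgery, which overlapped (difference in log2 ratio 0.44, exact p = 0.3, adjusted over the 8 pairs 0.8). Tnni1 stood at 33.7%, 35.5% and 11.3% of Tnni3 with vagotomy, 43.4%, 21.8% and 12.2% after resection alone and 27.1%, 19.6% and 20.5% after sham surgery. These ratios overlapped in all 3 comparisons (exact p = 0.9 for resection against sham and 1 for both comparisons with vagotomy). Acta1 stood at 1.12%, 0.771% and 0.258% of Actc1 after resection and 1.00%, 0.754% and 0.225% after sham surgery (exact p = 0.7).

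The essential light chain ratios followed Myl3. Myl4 had 50.7, 31.8 and 15.4 FPKM with vagotomy, 28.6, 9.69 and 14.9 FPKM after resection alone and 18.5, 17.8 and 23.8 FPKM after sham surgery, which overlapped. As a percent of Myl3 it stood at 0.778%, 0.546% and 0.145% with vagotomy, below the 2.00%, 2.29% and 1.78% after resection alone and the 1.10%, 1.55% and 2.97% after sham surgery. The difference in log2 ratio was -2.39 against resection (exact p = 0.1, adjusted over 6 pairs 0.3) and -2.13 against sham (exact p = 0.1, adjusted 0.2). Myl1 had 2.04, 8.77 and 12.7 FPKM with vagotomy, 11.3, 8.34 and 7.61 FPKM after resection alone and 7.30, 11.6 and 10.4 FPKM after sham surgery. Its ratio to Myl3 was likewise lower in every vagotomy library, with a difference in log2 ratio of -3.64 against resection and -3.19 against sham (exact p = 0.1 each).

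For the regulatory light chains, Myl7 stood at 0.381%, 0.0806% and 0.1001% of Myl2 after resection and 0.0471%, 0.0350% and 0.0475% after sham surgery, without overlap (difference in log2 ratio 1.55, exact p = 0.1, adjusted 0.4). With vagotomy Myl7 was at 4.64 and 2.70 FPKM in the first 2 libraries and listed at 0 in the third. Tnnt1 stood at 0.814%, 0.654% and 0.836% of Tnnt2 after resection, below the 1.12%, 1.11% and 0.931% after sham surgery (difference in log2 ratio -0.43, exact p = 0.1, adjusted 0.4). Tpm2 stood at 1.40%, 1.30% and 1.54% of Tpm1 with vagotomy, above the 1.04%, 0.555% and 0.804% after sham surgery (0.82, exact p = 0.1, adjusted 0.2) and overlapping with resection alone (0.77, exact p = 0.3). The ratios of Myl4 and Myl1 share their denominator, Myl3, and so are not separate observations.

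**Figure D4:**
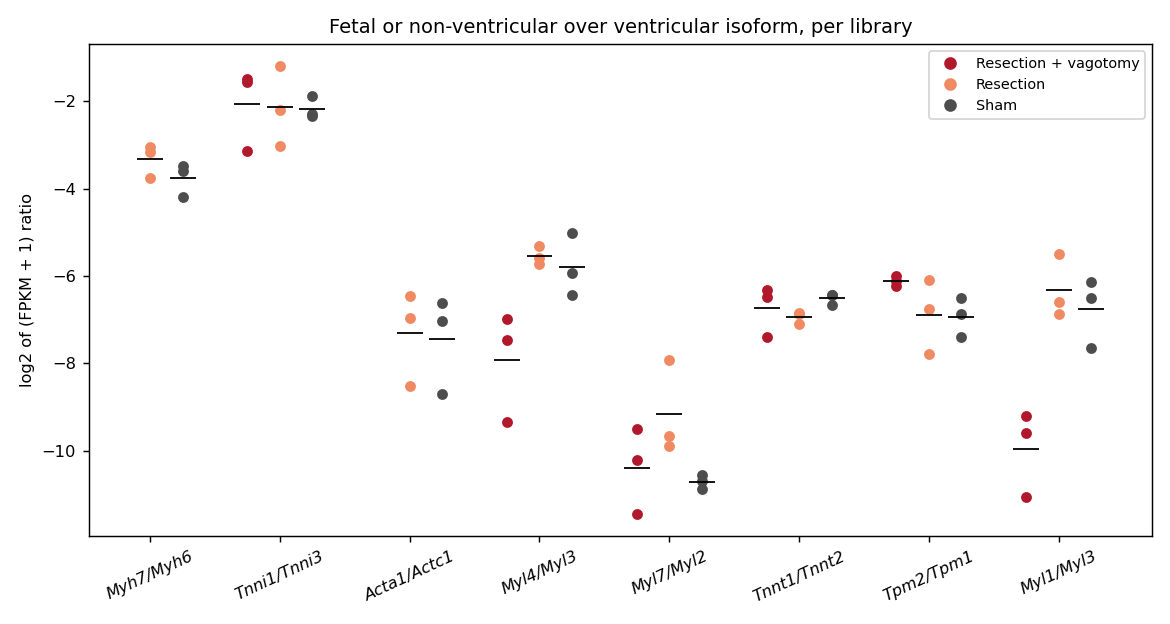
Log2 ratio of the fetal, atrial or skeletal isoform over the adult ventricular isoform in single libraries for 8 pairs, with resection with vagotomy left, resection in the middle and sham surgery right. The ratios of Myl4 and Myl1 to Myl3 are lower in all 3 vagotomy libraries than in any other, and the ratio of Tnni1 to Tnni3 overlaps between all groups.

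In the authors' deposited table, Cuffdiff called 15 of the 36 genes at q under 0.05 for vagotomy against resection, 14 of them higher, where it called 8.52% of its tested genes higher and 8.56% lower. The higher ones in the authors' deposited table were Myh7, Myl3, Myl4, Tnnt1, Tnni1, Tnnc1, Tpm1, Tpm2, Actn2, Tcap, Cryab, Tmod1, Mypn and Flnc, and the lower one was Smpx. For resection against sham, the authors' deposited table called 3 of 38 genes, all higher, where it called 4.18% of its tested genes higher: Myl7 (q = 0.0246), Xirp2 (q = 0.00161) and Des (q = 0.0343). In the limma fit these had adjusted p values of 1. At q under 0.01 the authors' deposited table called 9 of 36 genes for vagotomy against resection and 1 of 38 for resection against sham, where it called 8.84% and 4.22% of its tested genes.

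A wider list of 42 other sarcomere genes (further Z-disc, titin-binding and folding proteins) was set beside the main set. Of these 40 were in the matrix and 38 were tested, and limma called 0 in each of the 3 comparisons. Median log2 differences were 0.05 for vagotomy against resection, 0.04 for vagotomy against sham and 0.02 for resection against sham. The background of limma calls was 1.97% higher and 1.55% lower, 5.81% higher and 4.26% lower, and 0.294% in either direction, in the same order. At an unadjusted p under 0.05 the list had 5 genes higher and 2 lower for vagotomy against resection (background 13.1% and 11.1%). It had 6 higher and 2 lower for vagotomy against sham (background 16.4% and 13.7%), and 1 higher and 1 lower for resection against sham (background 5.89% in either direction). For vagotomy against resection, the authors' deposited table called 5 of 40 tested genes of the list higher and 2 lower (background 8.52% and 8.56%). For resection against sham it called 2 of 39 higher, Ankrd1 and Pdlim7 (background 4.18%). Nearest to the threshold for vagotomy against resection were Lmod3 (log2 difference 0.74, limma adjusted p = 0.0755), Pdlim1 (1.03, adjusted p = 0.0910), Tpm4 (-0.88, adjusted p = 0.0923) and Bag3 (1.34, adjusted p = 0.0986). Bag3, a co-chaperone at the Z-disc, had 75.2, 60.5 and 102 FPKM with vagotomy, 46.8, 16.8 and 33.5 FPKM after resection alone and 45.5, 23.96 and 18.4 FPKM after sham surgery. Against sham it was followed by Pdlim7, Pdlim1 and Myh7b, with adjusted p between 0.0527 for Bag3 and 0.0939 for Myh7b in limma. For resection against sham the smallest p values were those of Ankrd1, a stretch-responsive titin-binding protein (log2 difference 0.92, adjusted p = 0.734), Lmod3 (-0.50, adjusted p = 0.774), Pdlim7 and Fhl1.

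Of 12 transcription factors and cofactors that regulate sarcomere genes, limma called 1, higher in both comparisons with vagotomy. The background called higher was 1.97% against resection and 5.81% against sham. Myocd, or myocardin, a cofactor of serum response factor, had 104, 133 and 162 FPKM with vagotomy, 16.3, 27.2 and 35.6 FPKM after resection alone and 26.6, 29.1 and 33.2 FPKM after sham surgery. Every vagotomy library exceeded every other library, with log2 differences of 2.33 ± 0.31 (SE) against resection (limma, adjusted p = 0.00768) and 2.11 ± 0.31 against sham (adjusted p = 0.00689). Without vagotomy replicate 3 Myocd still passed, with log2 differences of 2.18 against resection (limma adjusted p = 0.0376) and 1.96 against sham (adjusted p = 0.0266), and with the 6 compared libraries only it did not pass against resection (adjusted p = 0.0643). Srf itself had 37.1, 19.4 and 67.6 FPKM with vagotomy, 20.1, 8.95 and 19.5 FPKM after resection alone and 19.1, 9.37 and 9.59 FPKM after sham surgery, and did not pass (log2 difference 1.21 against resection, limma adjusted p = 0.153, and 1.53 against sham, adjusted p = 0.0642). Mkl1 (1.01, limma adjusted p = 0.0603) and Hand2 (0.60, limma adjusted p = 0.353) did not pass against sham. Mkl1 (0.84, limma adjusted p = 0.134) and Mef2c (0.70, limma adjusted p = 0.179) did not pass against resection. The authors' deposited table called 2 of the 12 higher there, Mef2c and Myocd, and 0 lower (background 8.52% and 8.56%). At an unadjusted limma p under 0.05, 4 of the 12 were higher against resection (background 13.1%) and 3 against sham (background 16.4%), with 0 lower in either. For resection against sham 0 of the 12 were called in limma (background 0.294%), and 0 had an unadjusted p under 0.05 (background 5.89%). The authors' deposited table called 0 (background 6.12%). The smallest p values were those of Tead1, Hand2, Mef2c and Tbx5, with adjusted p of 1.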

How the data were processed

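RNA-seq reads were processed by the authors with TopHat2 2.0.9, Cufflinks 2.1.1 and Cuffdiff 2.1.1 on GRCm38, per the submitters' processing notes. The deposited matrix holds FPKM to which the authors had added 1, and this was subtracted. The authors' deposited Cuffdiff tables give a q-value per gene and group values. Read depth is unknown, so counting error cannot be given.

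The 13249 genes averaging 1 FPKM or more were fitted as log2(FPKM + 1) in limma 3.58.1 (R 4.3.3), with 9 libraries, 1 mean per group and a mean-variance trend. Fold changes on this scale understate low genes. The deposited loci were matched to GENCODE annotation of GRCm38 for gene positions, and promoter windows came from RefSeq (GRCm38.p6). Isoform ratios added 1 FPKM to both genes, except for the printed percents. The labels do not say whether libraries came from separate pups or litters, so p-values measure only the spread between these libraries. Same-numbered libraries with vagotomy and with resection alone deviated together weakly (r = 0.199, 0.141 and 0.117), so the blocked fit is given where it changes a call. The labels give no such pairing, and the third libraries of the groups carry different numbers in the deposited column names. Calls that the block changes rest on this assumed pairing.

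The genes and lists were chosen with earlier results of these data known. Described in full were isoform pairs, called genes and the 6 smallest p values in each comparison, and of the further lists the called genes and the 4 smallest p values. Filament roles group the genes for description only. Settings tried are in the closing section.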

Additional observations from a re-analysis of the deposited data

How the results depend on the processing

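For resection against sham, 0 of 38 genes were called under every setting run, while the count over all genes, 39, became 66 with a pseudocount of 0.1, 23 with 5, 13 with the 6 compared libraries only, 74 with robust moderation and 12 with mitochondrially encoded genes left out of the scale. For vagotomy against resection, the 4 calls of the set became 0 with the 6 compared libraries only, when 29 genes were called in all, against 466. Leaving mitochondrially encoded genes out gave 295 genes and, in the set, Myl3, Tnnc1 and Tpm2. For vagotomy against sham, it gave 701 genes in place of 1334 and 2 of the set in place of 4. This scaling moved the median of all tested genes to -0.14 for resection against sham, 0.28 for vagotomy against resection and 0.16 for vagotomy against sham, and that of the set to -0.29, 0.95 and 0.80 in the same order. It multiplies all genes of a library by 1 factor, so genes well above the pseudocount moved about alike. Why the mitochondrial share differed was not tested. With each library left out in turn, the counts of all genes ran from 11 to 59 for resection against sham, 42 to 591 for vagotomy against resection and 100 to 1701 for vagotomy against sham, and those of the set from 0 to 0, 0 to 6 and 0 to 7. Leaving out sham replicate 1 and resection replicate 1 together, a choice made after seeing the data, gave 12, 990 and 2202 genes and 0, 10 and 9 of the set. With the replicate block, 1277 genes and 6 of the set were called for vagotomy against resection. For vagotomy against sham, where same-numbered libraries correlated at 0.186, 0.170 and -0.019 and so are not taken as pairs, the replicate block gave 2413 genes and 8 of the set, and for resection against sham (0.498, 0.197 and 0.013) 55 genes and 0 of the set. It changed no other call of the set. In the authors' deposited tables, q under 0.01 left 1 of the 3 called genes for resection against sham and 9 of the 15 for vagotomy against resection. The ratio of Myl7 to Myl2 moved to -2.32 against resection and -0.58 against sham with a pseudocount of 0.1, where the value against sham was 0.32 before, so its sign rests on the pseudocount. Unknown depth limits the low genes Myl7, Myl1 and Xirp2 most.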
